A study of Bos taurus with 43 samples.

Results

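Calpains are calcium-activated cysteine proteases that cut a limited set of proteins, many of them in the sarcomere and the cytoskeleton, and their balance with the inhibitor calpastatin is known for its bearing on muscle growth and on the tenderness of beef. CAPN1 and CAPN2 encode the large subunits of the ubiquitous mu- and m-calpains, which pair with the small subunit CAPNS1. CAPN3 is expressed mainly in skeletal muscle, where its protein binds the giant sarcomere protein titin, and CAST encodes calpastatin, which inhibits mu- and m-calpain. Glucocorticoids such as dexamethasone are known to promote the breakdown of muscle protein. Probes for these 4 genes were sought by the gene name, the description and the symbol behind the accession on the array. The search found 1 probe per gene, so that 4 of the 21475 gene probes are described here: A_73_107954 for CAPN1, A_73_112696 for CAPN2, A_73_105408 for CAPN3 and A_73_110469 for CAST. A further probe, A_73_102871, is described on the array as similar to the calpain-2 catalytic subunit, but its gene number is that of CAPN14 in RefSeq, and it was not counted. Each of the 4 probes was printed as 2 spots and was well above background on all 43 arrays, with no saturated spot and no spot marked as an outlier.

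Biceps brachii, a muscle of the anterior limb, was collected from 43 male cattle at slaughter, and the RNA of each animal was hybridized to its own single-colour array. The positive animals were 4 commercial beef cattle (S21, S54, S56 and S57) that the labels give as suspected of corticosteroid treatment and that the study classed as positive from thymus histology and from dexamethasone residues in urine. The unknown animals were 21 commercial beef cattle of the same survey, mostly Charolais, Limousine or their crosses, whose treatment is not known. The study detected no dexamethasone in the urine of these 21 animals. The cross-breed animals (K) were 5 untreated young Charolais x Limousine bulls, and the Holstein animals (C) were 13 untreated young bulls, both sets from earlier controlled experiments. The dose and time of any treatment of the commercial animals are not given in the sources used here. The study divided the unknown animals by a principal component analysis of these same arrays into those that lay with the positive animals (group B, 10 animals here) and those that lay with the cross-breed controls (group A, 11 animals). Unknown A and unknown B are therefore described side by side, with no test between them.

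Several features of the arrays moved with the groups. The positive animals lay on slides 8 and 9 with the unknown animals 50, 78, 79 and 81, and shared no slide or scan day with either control group. The cross-breed and the Holstein animals also shared no slide or scan day, so that breed, batch and treatment cannot be told apart in comparisons with the controls. The 5 cross-breed arrays were read on scanners 1 and 2 and all other arrays on scanner 3, so that scanner and group cannot be told apart in either comparison with the cross-breed animals. The unknown A animals lay on slides 5 to 7 and the unknown B animals on slides 8 to 12. The 7 brightest spike-in RNAs, added in labelling as controls, had a mean log2 signal of 7.75 to 8.41 on the arrays of the unknown B animals 29, 39, 52, 61 and 76 and of at least 11.33 on every other array. Without these 5 arrays the unknown B means were 11.29 ± 0.26 (SD) for CAPN1, 12.45 ± 0.18 for CAPN2, 9.46 ± 0.56 for CAPN3 and 11.80 ± 0.19 for CAST. Homeobox genes, which mark position along the body, also differed. HOXA10, a homeobox gene, measured 10.13 to 11.17 on the log2 scale in the 18 controls and the unknown A animals 263, 265, 266, 269 and 270, and 1.22 to 5.96 in the other 20 animals. HOXC6 ran the opposite way, from 3.18 to 8.20 and from 9.73 to 10.82. ZFY, which lies on the Y chromosome, measured 2.84 to 4.53 in the 11 unknown A animals and 5.47 to 7.26 in the other 32. All animals are given as male. The defining markers of muscle were bright in all sets. The summed signal of 11 muscle fibre probes, led by myoglobin (MB), had a mean log2 of 20.22 ± 0.15 (SD) in the positive animals, 20.28 ± 0.37 in unknown B, 19.30 ± 0.17 in unknown A, 19.87 ± 0.35 in the cross-breed and 20.49 ± 0.11 in the Holstein animals. MB had a saturated spot on 6 arrays. The part of these genes' differences in the results that follow was not tested.

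All levels are normalized log2 signals of the scanner's background-subtracted intensity, so that a difference of 1 is a 2-fold difference in signal. Levels are compared between animals for the same probe and not between genes. A probe passed the test where limma gave a Benjamini-Hochberg adjusted p under 0.05 over the 16354 probes kept after dim probes were removed, and all 4 probes were kept. Of all probes tested, 51.7% passed between the positive and the cross-breed animals, 48.3% between the Holstein and the cross-breed animals and 36.4% between the positive and the Holstein animals. On the slides that the positive animals shared with 4 unknown animals, 0 probes passed by limma, with 11.4% at an unadjusted p under 0.05. Probes that passed and differed by at least 2-fold, termed called, made up 28.1%, 20.6% and 17.8% of all probes in the comparisons with controls and 0% on the shared slides. Of the calpain and calpastatin probes, 1 of 4 passed in each of the comparisons with controls and 0 of 4 on the shared slides, and CAPN3 between the positive and the Holstein animals was called.

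CAPN1, the large subunit of mu-calpain, was lowest in the unknown A animals. Its log2 signal was 11.03 in S54, 11.10 in S21, 11.25 in S56 and 11.43 in S57, a mean of 11.20 ± 0.18 (SD, n = 4). The cross-breed animals had 10.92 (K10), 11.07 (K11), 11.31 (K8), 11.44 (K7) and 11.51 (K12), a mean of 11.25 ± 0.25 (SD, n = 5). All 4 positive animals lay within the range of the cross-breed animals. The 10 unknown B animals ran from 11.02 to 11.67 with a median of 11.24, and the 13 Holstein animals from 10.79 (C48) to 12.05 (C44) with a median of 11.73. In the 11 unknown A animals the signal ran from 9.59 (animal 265) to 10.70 (animal 37) with a median of 10.48, and every one of them lay below the lowest of the other 32 animals. Of all probes kept, 353 (2.16%) placed unknown A wholly below the other 32 animals in the same way, and 89 (0.544%) placed them wholly above. The muscle fibre sum given above had its lowest mean in the same set, and its Pearson's r with CAPN1 was 0.783 over the 43 arrays and 0.317 over the 13 Holstein arrays. The sum is carried by a few bright probes, and members of the list ran both ways. Unknown A had lower means than the positive animals for MB (17.37 against 18.49) and ACTA1 (15.65 against 17.67) but higher means for CKM (16.32 against 15.76), DES (16.45 against 16.28) and TNNT3 (14.18 against 11.82). In whole muscle, fewer fibres and less RNA per fibre cannot be told apart.

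In order of the mean CAPN1 level, unknown A (10.39 ± 0.31, SD) was followed by the positive animals, the cross-breed animals, unknown B (11.31 ± 0.25) and the Holstein animals (11.65 ± 0.32). The step from unknown A to the positive animals was 0.82, larger than either SD, and the ranges did not overlap. The steps from there to the cross-breed animals (0.05) and on to unknown B (0.06) were smaller than the spread, and the step to the Holstein animals (0.34) barely exceeded it with ranges that overlapped. The Holstein mean was 0.40 above that of the cross-breed animals (standard error 0.17, 95% interval 0.05 to 0.74) and missed the threshold with an adjusted p of 0.0541. The positive animals were 0.45 below the Holstein animals (interval -0.82 to -0.08, adjusted p = 0.0556). Both values lay close to the threshold and passed under some other settings given in the closing section. CAPN1 did not pass between the positive and the cross-breed animals (-0.05, interval -0.42 to 0.32, adjusted p = 0.831).

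**Figure D1:**
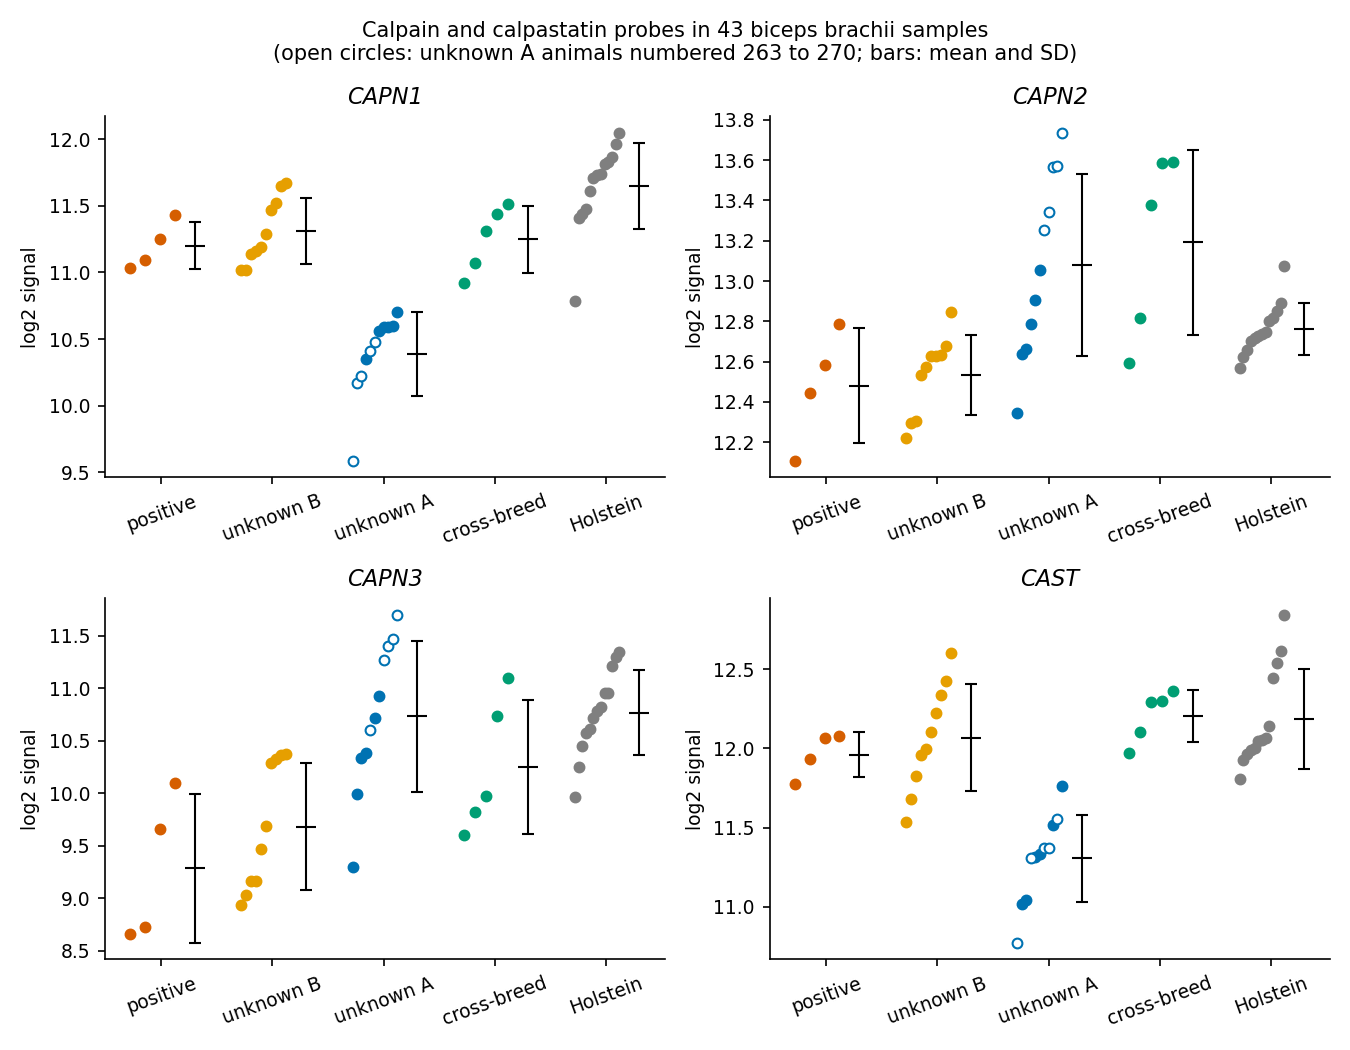
Normalized log2 signal of the CAPN1, CAPN2, CAPN3 and CAST probes in each animal, with 1 circle per animal sorted within each set, and the mean and SD beside them. CAPN1 in the 11 unknown A animals lay between 9.59 and 10.70, below all other animals, and open circles mark animals 263 to 270, which had CAPN2 signals of 13.25 to 13.74.

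CAPN2, the large subunit of m-calpain, was lower in the positive animals than in the cross-breed animals, and lower in the Holstein than in the cross-breed animals. Its log2 signal was 12.11 in S57, 12.44 in S56, 12.59 in S21 and 12.79 in S54, a mean of 12.48 ± 0.29 (SD, n = 4). In the cross-breed animals it was 12.59 (K7), 12.82 (K12), 13.38 (K10), 13.58 (K11) and 13.59 (K8), a mean of 13.19 ± 0.46 (SD, n = 5). K8, K10, K11 and K12 lay above all positive animals, K12 narrowly, whereas K7 lay among them. The difference was -0.71 (standard error 0.25, interval -1.25 to -0.17), a signal 1.64-fold lower in the positive animals (limma, adjusted p = 0.0324). The result lay close to the threshold. Without K8, K10 or K11 the difference was -0.61, -0.67 or -0.61 and the adjusted p 0.0701, 0.0613 or 0.0685. Without S21, S56 or S57 the difference was -0.75, -0.70 or -0.59 and the adjusted p 0.0548, 0.0699 or 0.0943. Under pairwise cyclic loess, a normalization that moved the median change of all probes from -0.03 to -0.26, the difference was -0.21 (adjusted p = 0.479). A random block for the slide gave an adjusted p of 0.0725, and a random block for the day of scanning gave 0.0938. With 75th percentile scaling the difference was -0.57 (adjusted p = 0.0685), and with normexp background correction -0.64 (adjusted p = 0.0535).

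The 13 Holstein animals had CAPN2 signals of 12.57 to 13.08 with a median of 12.74. They were 0.43 below the cross-breed animals (standard error 0.14, interval -0.73 to -0.13, 1.35-fold lower, adjusted p = 0.0191). Without K8, K10 or K11 the difference was -0.33, -0.38 or -0.33 and the adjusted p 0.0798, 0.0554 or 0.0783. It also lost the threshold with 75th percentile scaling (-0.31, adjusted p = 0.0981) and with all 43 arrays fitted jointly (-0.43, adjusted p = 0.0813). The SD of CAPN2 over the Holstein animals was 0.13, and only 1.06% of the probes kept varied less among them, against 69.9% among the cross-breed animals, where the SD was 0.46. The positive animals were 0.28 below the Holstein animals (interval -0.53 to -0.04) and did not pass (adjusted p = 0.0680).

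Among the unknown animals, CAPN2 ran from 12.22 to 12.85 in unknown B (median 12.60) and from 12.34 to 13.74 in unknown A (median 13.06). The unknown A animals 263, 265, 266, 269 and 270 held the upper end, from 13.25 to 13.74, while the other 6 ran from 12.34 to 13.06. Animal 269 (13.57) lay on slide 6 with animals 36 (12.66) and 58 (12.34), and was the only one of these 5 animals on a slide with other unknown A animals. By mean level the order was the positive animals, unknown B (12.53 ± 0.20, SD), the Holstein animals (12.76 ± 0.13), unknown A (13.08 ± 0.45) and the cross-breed animals. Only the step from unknown B to the Holstein animals (0.23) exceeded the larger SD of the neighbours, and all neighbouring ranges overlapped. The 5 high unknown A animals are those in which HOXA10 was at the level of the controls. Many controls had lower CAPN2 signals than these 5 animals, with 12.57 to 13.08 in the 13 Holstein animals, 12.59 in K7 and 12.82 in K12.

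CAPN3, the muscle calpain that binds titin, showed the largest difference of the 4 probes. It was 8.65 in S56, 8.72 in S21, 9.66 in S54 and 10.10 in S57, a mean of 9.29 ± 0.71 (SD, n = 4). Its 2 spots on the array of S21 differed by 1.69 on the log2 scale, against a median difference of 0.12 over the 43 arrays. The 13 Holstein animals ran from 9.96 to 11.35 with a median of 10.79, and S57 alone of the positive animals lay within this range. The difference was -1.48 (standard error 0.27, interval -2.04 to -0.92), a signal 2.79-fold lower in the positive animals (limma, adjusted p = 3.87e-04). Of all probes, 9.4% were lower in the positive than in the Holstein animals by at least 2-fold and passed. The difference stayed past the threshold without any one positive animal (-1.75 to -1.27), and with the first or the last spot of each probe alone (-1.84 and -1.12). Holstein breed, scan days 10 to 13 and untreated status coincided, and the fast fibre genes described below also differed between these animals.

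The cross-breed animals had CAPN3 signals of 9.61 (K10), 9.82 (K8), 9.97 (K12), 10.74 (K7) and 11.09 (K11), a mean of 10.25 ± 0.64 (SD, n = 5), and overlapped with S54 and S57. The positive animals were 0.96 below them (interval -1.82 to -0.10) and did not pass (adjusted p = 0.0586). The same difference passed without S57 (-1.23, adjusted p = 0.0263), without K10 (-1.12, adjusted p = 0.0395) and under pairwise cyclic loess (-1.39, adjusted p = 0.0192), but not with the last spot of each probe (-0.64, adjusted p = 0.149). The Holstein animals were 0.52 above the cross-breed animals (interval 0.01 to 1.03, adjusted p = 0.0844), and without K11 this difference was 0.73 (adjusted p = 0.0197). Unknown B ran from 8.94 to 10.38 (median 9.58) and unknown A from 9.29 to 11.70 (median 10.72). The unknown A animals 263 to 270 ran from 10.60 to 11.70 and the other 6 from 9.29 to 10.92, so that they overlapped. By mean level the order was the positive animals, unknown B (9.68 ± 0.60, SD), the cross-breed animals, unknown A (10.73 ± 0.72) and the Holstein animals (10.76 ± 0.41). Every step between neighbours was smaller than the larger of their SDs. CAPN3 varied more than most probes within the positive animals, where 95.1% of the probes kept had a smaller SD.

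CAST, the inhibitor, was lowest in the unknown A animals, as was CAPN1. Its log2 signal was 11.77 in S57, 11.93 in S21, 12.07 in S56 and 12.08 in S54, a mean of 11.96 ± 0.14 (SD, n = 4). The cross-breed animals had 11.97 (K7), 12.10 (K12), 12.29 (K11), 12.30 (K8) and 12.36 (K10), a mean of 12.21 ± 0.16 (SD, n = 5). The Holstein animals ran from 11.81 to 12.84 (median 12.05), and the unknown B animals from 11.54 to 12.60 (median 12.05). The unknown A animals ran from 10.77 to 11.76 (median 11.33), and unknown B reached down into this range. In order of the mean, unknown A (11.31 ± 0.28, SD) was followed by the positive animals, unknown B (12.07 ± 0.34), the Holstein animals (12.19 ± 0.32) and the cross-breed animals. The step from unknown A to the positive animals was 0.66, larger than either SD, and every other step was smaller than the spread. Without the 5 arrays of low spike-in signal, unknown B lay below the positive animals in the mean of CAST (11.80) and of CAPN2 (12.45). No tested comparison of CAST passed. The difference was -0.24 between the positive and the cross-breed animals (interval -0.56 to 0.07, adjusted p = 0.173), -0.23 between the positive and the Holstein animals (interval -0.59 to 0.13, adjusted p = 0.310) and -0.02 between the Holstein and the cross-breed animals (interval -0.34 to 0.31, adjusted p = 0.937).

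**Figure D2:**
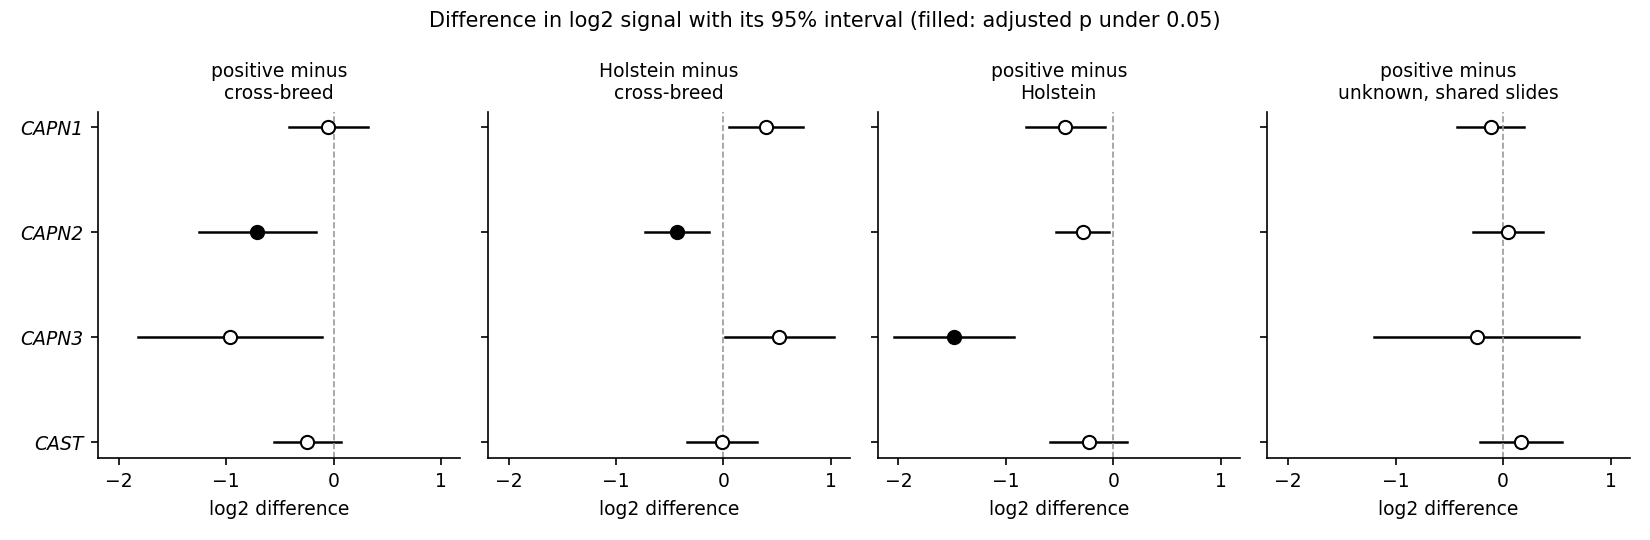
Difference in mean log2 signal between groups (circles) with its 95% interval from limma (lines) for each probe, in 4 comparisons, with filled circles at an adjusted p under 0.05. CAPN2 passed in both comparisons with the cross-breed animals, and CAPN3 passed between the positive and the Holstein animals, where it was -1.48.

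The comparison within slides 8 and 9 asks whether the positive animals differed from unknown animals that were hybridized and scanned beside them. Animals 50, 78, 79 and 81 all belong to unknown B. The study drew that group from these same arrays as the unknown animals that lay with the positive animals. Small differences were therefore favoured by how the group was drawn. The comparison cannot show whether the positive animals differed from unknown animals at large. CAPN1 was 11.25 and 11.43 in the positive animals of slide 8 and 11.47 and 11.65 in the unknown animals there, and 11.03 and 11.10 against 11.02 and 11.14 on slide 9. With the slide as a term, the difference was -0.12 for CAPN1 (interval -0.43 to 0.20), 0.05 for CAPN2 (-0.28 to 0.37), -0.25 for CAPN3 (-1.20 to 0.71) and 0.17 for CAST (-0.21 to 0.55). The adjusted p of these ran from 0.706 to 0.899. The interval of CAPN3 left room for a 2.30-fold lower or a 1.64-fold higher signal, and that of CAPN1 for a 1.35-fold lower or a 1.15-fold higher one. Slides 8 and 9 differed from each other, with CAPN1 at a mean of 11.45 and 11.07 over their 4 arrays and CAPN2 at 12.27 and 12.65. On the array of animal 79, 40.2% of the spots were well above background, against 74.9% to 97.3% on the other 7 arrays. Without this array the differences were -0.16 for CAPN1, 0.03 for CAPN2, -0.42 for CAPN3 and 0.22 for CAST, 0 of 4 passed, and 9 probes of the whole array were called.

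**Figure D3:**
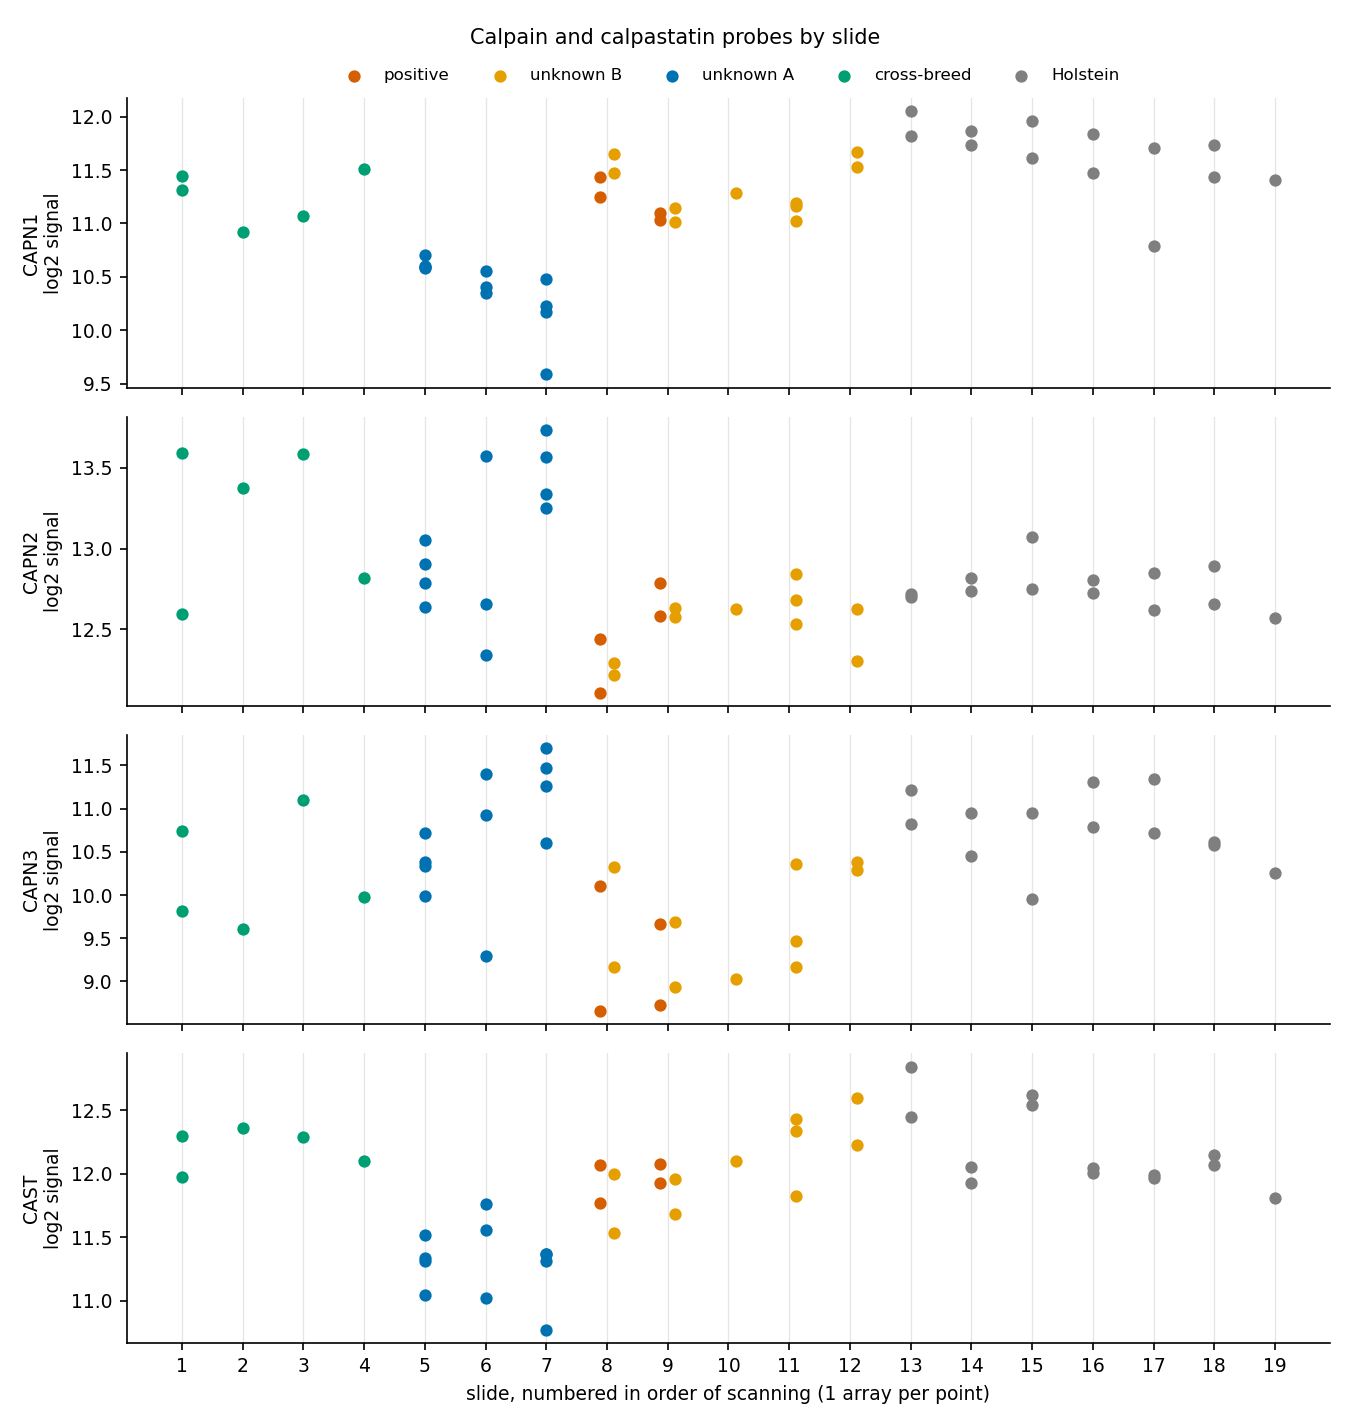
Normalized log2 signal of each probe by slide, 1 point per array, with slides numbered in order of scanning and colours for the 5 sets. Apart from slides 8 and 9, which hold positive and unknown B animals, each slide held a single set. CAPN1 was 9.59 to 10.70 on slides 5 to 7.

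Across the 43 arrays, CAPN1 and CAST moved together, with a Pearson's r of 0.760. The low values of both were those of unknown A. Within unknown B it was 0.035 (n = 10), within unknown A 0.574 (n = 11) and within the Holstein animals 0.453 (n = 13). CAPN2 and CAPN3 had an r of 0.473 over the 43 arrays, 0.829 within unknown A, -0.140 within unknown B and 0.084 within the Holstein animals. Within unknown A, animals 263, 266, 269 and 270 were highest in both, while animal 265 was high in CAPN2 but had a CAPN3 signal of 10.60, below animals 36 and 38. CAPN1 and CAPN2 had an r of -0.442 over all arrays, -0.355 within unknown A, -0.604 within unknown B and 0.148 within the Holstein animals. The r of CAPN3 with CAST was -0.0979 over all arrays, 0.504 within unknown A, 0.224 within unknown B and -0.077 within the Holstein animals. Arrays of a set share slides and scan days, so that these values are descriptions.

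**Figure D4:**
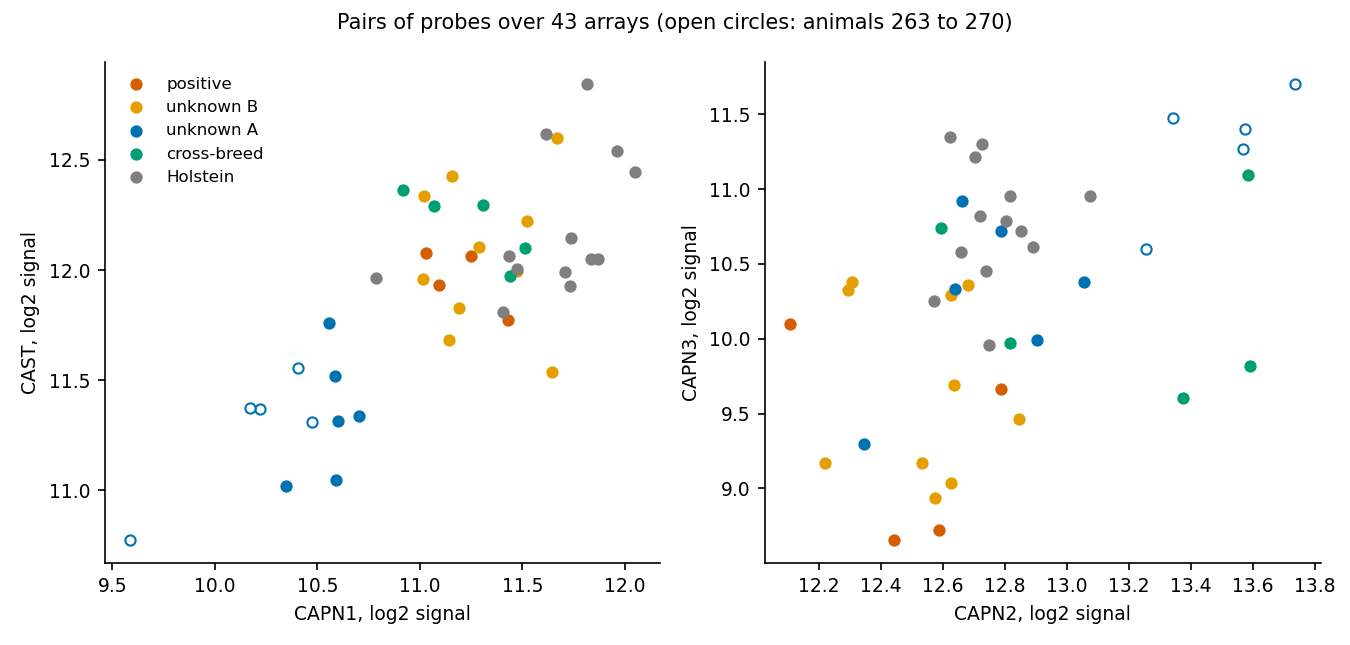
Log2 signal of CAST against CAPN1 (left) and of CAPN3 against CAPN2 (right), 1 circle per animal, with colours for the 5 sets and open circles for animals 263 to 270. The unknown A animals form the low end of CAPN1 and CAST (r = 0.760 over 43 arrays), and animals 263 to 270 had the 5 highest CAPN2 signals of unknown A.

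The genes most alike in pattern were taken as the 3 named genes with the highest Pearson's r over the 43 arrays, among 12925 named probes. For CAPN1 they were CMYA5 (0.875), which encodes a costamere protein of striated muscle, the autophagy kinase ULK2 (0.869) and GPD1 (0.865), the cytosolic glycerol-3-phosphate dehydrogenase. For CAPN2 they were the histidine methyltransferase SETD3 (0.829), the co-chaperone BAG2 (0.826) and HIF1AN (0.826), an inhibitor of hypoxia-inducible factor. For CAPN3 they were CLCN1 (0.833), the chloride channel of skeletal muscle, ANO10 (0.809) and the muscle creatine kinase CKM (0.801). For CAST they were the lysosomal glucuronidase GUSB (0.862), ZNF746 (0.858) and the NAD synthetase NADSYN1 (0.851). Over the 13 Holstein arrays alone these values were lower, for example 0.443 for CMYA5, 0.450 for SETD3 and 0.597 for CLCN1, with NADSYN1 at 0.778 and BAG2 at 0.0429.

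The rest of the calpain family gave 9 probes of 8 genes that were kept. CAPNS1, the small subunit shared by mu- and m-calpain, was at 14.47 ± 0.16 (SD) in the positive, 14.86 ± 0.12 in the cross-breed and 14.29 ± 0.21 in the Holstein animals. It fell by 0.38 between the cross-breed and the positive animals (adjusted p = 0.0365) and by 0.57 between the cross-breed and the Holstein animals (adjusted p = 5.81e-04). Between the positive and the cross-breed animals 5 of the 9 probes were lower and 2 higher, against 26.2% lower and 25.5% higher of all probes, with a median change of -0.38 against -0.03 for all probes. CAPN11 was 1 of the 2 higher probes and was not well above background on any cross-breed array, so that no fold can be given for it. CAPN12 (-1.22) and a CAPN5 probe (A_73_112470, -1.17) were called. The other CAPN5 probe, A_73_106493, changed by -0.93 (adjusted p = 0.00741). In the Holstein against the cross-breed animals 3 were lower and 2 higher, against 24.4% and 23.9% of all probes. CAPN11, not well above background on any array of either group, was 1 of the 3, and among those higher was CAPN10 (0.68, adjusted p = 4.79e-04). In the positive against the Holstein animals 2 were lower and 1 higher, against 18.7% and 17.7% of all probes. CAPN7, an atypical calpain without the usual calcium-binding domain, was called lower (-1.21, adjusted p = 1.41e-05), with 9.44 ± 0.07 (SD) in the positive and 10.65 ± 0.29 in the Holstein animals. CAPN11, the probe that was higher, was not well above background on any control array and was so on 2 of the 4 positive arrays. The median change of these 9 probes was -0.20 between the Holstein and the cross-breed animals but 0.16 without the filter on dim probes, and -0.27 between the positive and the Holstein animals but 0.05 with 75th percentile scaling.

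Of 15 probes for sarcomere and cytoskeleton proteins known as calpain substrates, 9 were lower and 1 higher in the positive than in the cross-breed animals, against 26.2% and 25.5% of all probes, with a median change of -0.82 against -0.03. FLNC, a filamin of the Z-disc, was at 16.15 ± 0.37 (SD) and 17.23 ± 0.37 (difference -1.08, adjusted p = 0.00300). MYBPC2, the fast form of myosin binding protein C, differed by -6.01 and the fast troponin TNNT3 by -2.72. Probes of giant genes disagreed. At 1 probe of nebulin (NEB, A_73_100924) the difference was -4.56, while the other 2 NEB probes did not pass, and of the 2 titin (TTN) probes A_73_111346 differed by -1.46 and A_73_106975 by 0.99. In the Holstein against the cross-breed animals 9 were lower and 2 higher, against 24.4% and 23.9% of all probes, with FLNC (-1.25), TTN at A_73_111346 (-2.60) and TNNT3 (-1.47) called lower and vinculin (VCL) at A_73_111037 called higher (1.65), while the other VCL probe, A_73_116864, was lower by 0.39 (adjusted p = 0.0345). In the positive against the Holstein animals 5 were lower and 1 higher, against 18.7% and 17.7% of all probes. MYBPC2 (-6.90), NEB at A_73_100924 (-4.92), VCL at A_73_111037 (-1.51) and TNNT3 (-1.25) were called lower, and SPTAN1, a spectrin, was higher by 0.93 (adjusted p = 0.00515). Titin, nebulin, desmin and filamin C are cut by calpains at the protein level, which these arrays did not measure.

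Of 7 probes for proteins that bind CAPN3 or the titin N2A region, 1 was higher and 2 lower in the positive than in the cross-breed animals, so that 3 of 7 passed against 51.7% of all probes. SMPX, a small muscle protein of the costamere, was at 15.01 ± 0.24 (SD) and 16.19 ± 0.19 (difference -1.18, adjusted p = 2.10e-04), and the titin-binding ankyrin repeat gene ANKRD23 differed by -1.08 (adjusted p = 0.00133). Its relative ANKRD1, a stress-responsive ankyrin repeat gene, was higher by 0.95 (adjusted p = 0.0129). Between the positive and the Holstein animals 2 were higher and 4 lower, against 17.7% and 18.7% of all probes, and the called genes were ANKRD2 (2.06, adjusted p = 0.00126) and ANKRD1 (1.33, adjusted p = 0.0184). In the Holstein against the cross-breed animals 2 were higher and 2 lower, against 23.9% and 24.4% of all probes, with ANKRD2 called lower (-2.19, adjusted p = 5.28e-04).

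Other protease systems of muscle were also compared. Of 8 lysosomal cathepsin and cystatin probes, 1 was higher and 0 lower in the positive than in the cross-breed animals by limma, the aspartic protease CTSD (0.50, adjusted p = 0.0197), against 25.5% higher and 26.2% lower of all probes. In the Holstein against the cross-breed animals 4 were higher and 1 lower, against 23.9% and 24.4% of all probes, with the cysteine cathepsins CTSS (1.36), CTSL (1.18) and CTSK (1.09) called higher. CTSL was well above background on 9 of the 13 Holstein and 1 of the 5 cross-breed arrays. In the positive against the Holstein animals 1 was higher and 4 lower, against 17.7% and 18.7% of all probes. CTSK was called lower (-1.09, adjusted p = 0.00197), CTSL was at least 2.67-fold lower and not well above background on any positive array (adjusted p = 9.52e-04), and CTSD was higher by 0.80 (adjusted p = 1.56e-04). For this bound a dim signal was raised to the faintest signal that passed the background test on its array. On the shared slides 0 probes of these lists passed by limma.

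**Figure D5:**
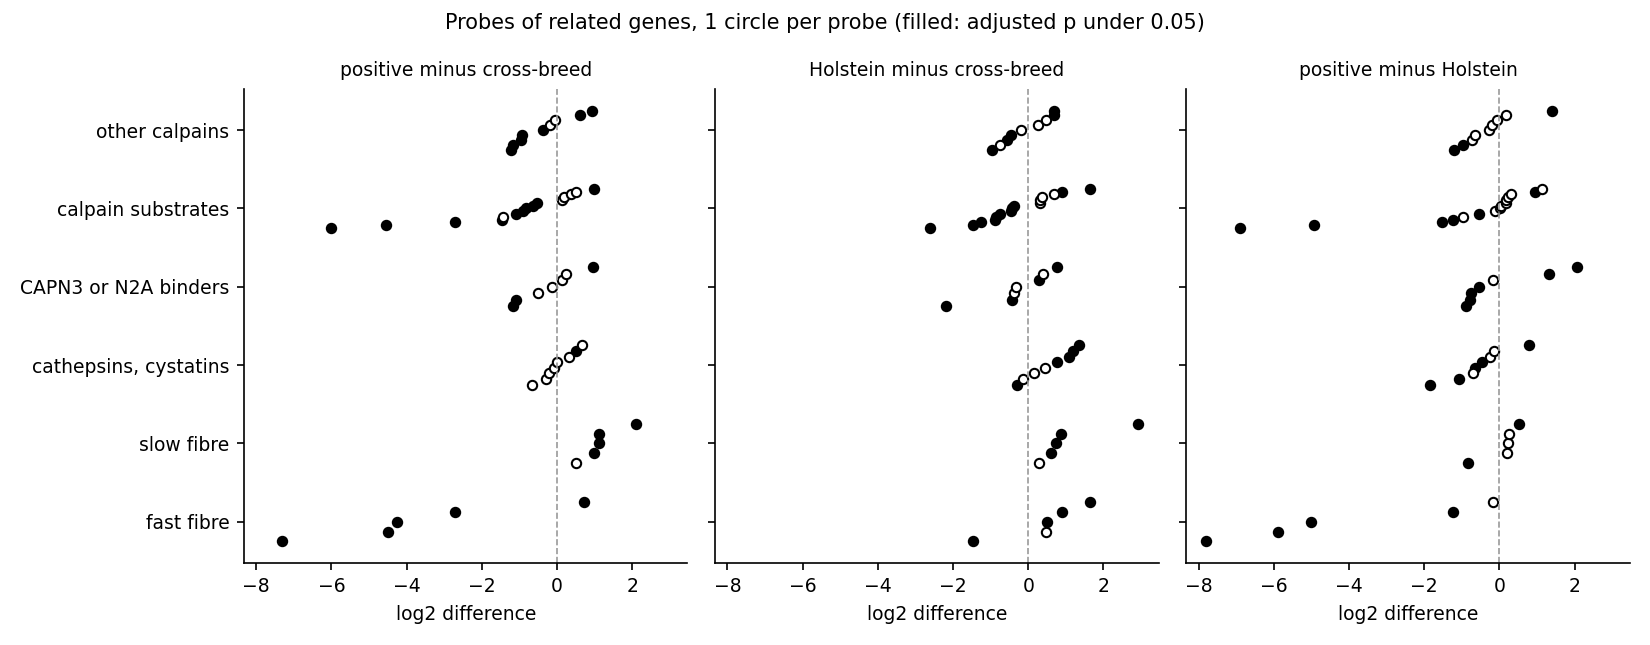
Log2 difference of each probe of 6 lists of related genes (1 circle per probe, filled at an adjusted p under 0.05) in the 3 comparisons with control animals. MYBPC2, TNNC2 and both MYH1 probes lay far below 0 in both comparisons of the positive animals, with MYH1 at -7.32 and -4.25 against the cross-breed animals.

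Markers of fibre type and of other cell types moved with the same groups. Of 5 slow fibre probes, led by TNNC1, 4 were higher in the positive than in the cross-breed animals, against 25.5% of all probes, with MYL3 (2.09), TNNT1 (1.11) and MYL2 (1.10) called. Of 5 fast fibre probes, 4 were lower, against 26.2% of all probes, and these 4 were called, namely MYH1 at both of its probes (-7.32 and -4.25), TNNC2 (-4.49) and TNNT3 (-2.72). The remaining fast fibre probe, MYL1, was higher by 0.71 (adjusted p = 0.00481). The median change of the slow fibre probes was 1.10, and it was -0.08 under pairwise cyclic loess. In the Holstein against the cross-breed animals 4 slow fibre probes were higher and 0 lower, and 3 fast fibre probes were higher and 1 lower, against 23.9% higher and 24.4% lower of all probes, with a median of 0.51 for the fast fibre probes that was -0.03 under quantile normalization. TNNC1 had a saturated spot on 13 arrays. The summed slow fibre signal had a mean log2 of 20.31 ± 0.16 (SD) in the positive animals, 20.31 ± 0.31 in unknown B, 19.39 ± 0.33 in unknown A, 19.41 ± 0.32 in the cross-breed and 20.16 ± 0.15 in the Holstein animals. The summed fast fibre signal was 17.60 ± 0.34, 18.07 ± 0.90, 18.00 ± 0.72, 19.04 ± 0.39 and 19.74 ± 0.19 in the same order. In the positive animals this sum was mostly MYL1, at a mean of 17.37, while TNNC2 was at 13.17, TNNT3 at 11.82 and the MYH1 probes at 11.47 and 9.82. The mean of unknown B lay below that of unknown A at each of the 4 probes other than MYL1. It was 14.15 ± 2.72 (SD) and 16.23 ± 1.39 for TNNC2, and 11.63 ± 0.90 and 14.18 ± 2.04 for TNNT3. At TNNC2 and at both MYH1 probes the gap was smaller than the SD of unknown B. The MYL1 probe and the slow fibre MYL3 probe carry the same accession on the array and were named by their descriptions, so that their identity is uncertain. Against the Holstein animals, 4 of the 5 fast fibre probes were lower in the positive animals, all 4 of them called, and 1 slow fibre probe was higher and 1 lower, against 17.7% higher and 18.7% lower of all probes. Pearson's r of CAPN2 with the slow fibre sum was -0.712 over the 43 arrays and -0.385 over the Holstein arrays. For single slow fibre probes it was -0.683 and -0.425 with TNNT1, -0.623 and 0.119 with MYH7, and -0.650 and 0.0644 with MYL2. Of the fast fibre probes, MYL1 gave -0.592 and 0.306 with CAPN2, and TNNT3 gave 0.586 and 0.355. The r of CAPN2 with the fast fibre sum was 0.184 and 0.400, and that of CAPN3 was 0.517 and 0.670. The r of CAPN3 with the MYH1 probe A_73_117636 was 0.602 over the 43 and 0.775 over the Holstein arrays. With the other MYH1 probe it was 0.517 and 0.294. It was 0.56 and 0.0022 with TNNT3, and -0.166 and 0.12 with MYL1. With the TTN probe A_73_111346 it was 0.0079 and 0.788, and with the other TTN probe, A_73_106975, -0.348 and 0.693. CAPN1 had an r of 0.652 over the 43 and 0.366 over the Holstein arrays with the slow fibre sum. With the fast fibre sum its r was 0.465 and -0.0941. For CAST these values were 0.450 and -0.0031 with the slow and 0.338 and -0.180 with the fast fibre sum. The part of fibre type in the differences of the 4 probes was not tested.

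Markers of other cell types are to be read against the shares of all probes that passed, which were 25.5% higher and 26.2% lower in the positive than in the cross-breed animals, 17.7% and 18.7% than in the Holstein animals, and 23.9% and 24.4% in the Holstein than in the cross-breed animals. Fibroblast markers, 6 probes of collagens and small proteoglycans, were lower in the positive than in the Holstein animals at 5 probes, lower at 3 and higher at 1 than in the cross-breed animals, and higher in the Holstein than in the cross-breed animals at all 6. Their summed log2 signal was 12.85 ± 0.76 (SD) in the positive, 14.15 ± 0.77 in the unknown B, 14.44 ± 0.99 in the unknown A, 13.92 ± 0.97 in the cross-breed and 15.23 ± 0.54 in the Holstein animals. The r of this sum with CAPN2 was 0.44 over the 43 arrays and 0.746 over the 13 Holstein arrays. Adipocyte markers, 4 probes led by LPL, were higher than in the cross-breed animals at 3 probes in the positive and at 4 in the Holstein animals, and their sum was 13.45 ± 0.25, 13.73 ± 0.59, 13.35 ± 1.01, 11.64 ± 0.45 and 12.78 ± 0.40 in the order above. ADIPOQ, a defining adipocyte gene, was not well above background on any cross-breed array. Endothelial markers (4 probes) were higher in the positive animals at 3 probes against either control group, with sums of 12.81 ± 0.40, 12.91 ± 0.46, 12.45 ± 0.88, 11.79 ± 0.35 and 11.35 ± 0.41. They passed at 0 of 4 probes between the Holstein and the cross-breed animals. Of the 3 smooth muscle probes, 2 were higher in the positive than in the cross-breed animals and 1 higher than in the Holstein animals, and of the 2 red cell probes, led by HBA, 2 and 0 were. In the Holstein against the cross-breed animals 1 smooth muscle and 1 red cell probe were higher, and the red cell sum was 9.06 ± 0.93 (SD) and 7.43 ± 0.34. Leukocyte markers (5 probes) were higher at 1 probe in the positive than in the cross-breed animals and at 0 probes by limma in both comparisons with the Holstein animals. The part of these cell types in the calpain and calpastatin values was not tested.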

How the data were processed

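Single-colour arrays of biceps brachii RNA from 43 cattle were used. The authors deposited, for each spot, a processed intensity that Feature Extraction had background-subtracted and multiplicatively detrended from scans at 2 sensitivities, and a value table whose scale, found by setting it against the scanner files, is a normalized linear signal. The deposited intensities were put on a log2 scale and normalized by cyclic loess (fast method) over all arrays with limma 3.58.1 in R 4.3.3. Spots of a probe were averaged without outlier spots. Probes below 4 (log2) on 30 or more of the 43 arrays were dropped, which removed 5121 of 21475 probes. All p-values come from limma with Benjamini-Hochberg adjustment over the 16354 probes kept, two-sided, with the arrays of the groups compared and, on the shared slides, the slide as a fixed term. The arrays are of separate animals, and their number limits the precision. The fits were tested on simulated data.

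Probes were named through RefSeq accessions, gene numbers and the array's descriptions. Named genes were the 4 genes, the called genes of each list (at most 6), further examples with their values, and the 3 genes most alike. HOXA10, HOXC6, ZFY and the examples under 2-fold were chosen after values were seen. The 4 genes and the lists were chosen with earlier results of these data known. All columns of samples in the value table belonged to the 43 animals. Alternatives were 75th percentile scaling, quantile normalization, pairwise cyclic loess, no normalization, normexp background correction (offset 50), the authors' value table (log2 of its signal, with values on at least 40 arrays), other filters, all arrays in a common fit, slide or scan day as a random block, each replicate of the smaller groups (no Holstein animal) left out and, added after seeing the data, the first or the last spot of each probe. A group of protease genes is not reported here.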

Additional observations from a re-analysis of the deposited data

How the results depend on the processing

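The 2.79-fold lower CAPN3 signal of the positive against the Holstein animals passed under every alternative run, and 0 of the 4 probes passed on the shared slides under any of them. On these slides 0 of all probes passed as well, except with animals left out, where 0 to 9 probes were called. The count is therefore not particular to the 4 probes. The unknown animals of these slides all belong to group B, so that small differences were favoured by how that group was drawn. CAPN2, which passed in both comparisons with the cross-breed animals, lost the threshold under several alternatives.

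Between the positive and the cross-breed animals, CAPN2 no longer passed with 75th percentile scaling (-0.57), pairwise cyclic loess (-0.21), normexp (-0.64), random blocks for the slide (-0.72) or for the day of scanning (-0.72), and 0 of 4 probes passed in the first and the last 3 of these. CAPN3 passed under pairwise cyclic loess (-1.39) and with the first spot of each probe (-1.28, 2 probes passing). Under pairwise cyclic loess CAPN1 (0.21) and CAST (0.29) changed sign. Without normalization, which shifted the median of all probes by -1.08, all 4 passed, with CAPN1 at -1.21, CAPN3 at -2.17 and CAST at -1.36.

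For the Holstein against the cross-breed animals, CAPN2 did not pass with 75th percentile scaling (-0.31) or when all 43 arrays were fitted jointly (-0.43), which left 0 probes passing. CAPN1 passed, giving 2 probes, under pairwise cyclic loess (0.52), normexp (0.39), the authors' value table (0.41), the filter on signal well above background (0.40) and the last spot (0.43). CAST changed sign with 75th percentile scaling (0.0326) and pairwise cyclic loess (0.11). Without normalization (median of all probes -1.04) CAPN1 (-0.52) and CAPN3 (-0.45) changed sign, CAST passed (-0.89) and 2 probes passed.

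Against the Holstein animals, CAPN1 of the positive animals passed with normexp (-0.50), without the filter on dim probes (-0.45) and with the filter on signal well above background (-0.45), giving 2 probes. CAPN1 and CAPN2 both passed with the value table (-0.45 and -0.30) and with the last spot (-0.51 and -0.36), giving 3 probes. CAPN2 (0.19) and CAST (0.18) changed sign under pairwise cyclic loess. On the shared slides CAPN1 changed sign with 75th percentile scaling (0.0227), CAPN2 under pairwise cyclic loess (-0.0217) and CAPN3 with the last spot (0.0739). The cause of these changes was not tested.

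The number of probes called between the positive and the cross-breed animals was 4598, and it was 9876 without normalization, 1362 with normexp and 7590 without the filter. For the Holstein against the cross-breed animals it was 3361, with 8579 and 1391 for the first 2 of these. For the positive against the Holstein animals it was 2911, with 463 for normexp, 5843 without the filter and 5776 under pairwise cyclic loess. Of the probes that passed, 49.3% were higher in the positive than in the cross-breed animals, against 61.6% with 75th percentile scaling and 36.8% under pairwise cyclic loess. For the positive against the Holstein animals these shares were 48.5%, 76.7% and 34.8%. For the Holstein against the cross-breed animals the share was 49.4%, against 38.5% with 75th percentile scaling. Without normalization the shares were 11.9%, 60.8% and 3.68%, in the same order of comparisons.

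With each animal of the smaller groups left out in turn, the following ranges were found. For positive against cross-breed animals, the difference of CAPN1 from -0.13 to 0.0183, of CAPN2 from -0.86 to -0.59, of CAPN3 from -1.23 to -0.75 and of CAST from -0.30 to -0.18, with 0 to 1 of the 4 probes passing and 4356 to 4655 probes called in all. For Holstein against cross-breed animals, the difference of CAPN1 from 0.32 to 0.46, of CAPN2 from -0.58 to -0.33, of CAPN3 from 0.36 to 0.73 and of CAST from -0.0747 to 0.0222, with 0 to 2 of the 4 probes passing and 3155 to 3302 probes called in all. For positive against Holstein animals, the difference of CAPN1 from -0.52 to -0.39, of CAPN2 from -0.38 to -0.16, of CAPN3 from -1.75 to -1.27 and of CAST from -0.27 to -0.16, with 1 to 2 of the 4 probes passing and 2581 to 2712 probes called in all. On the shared slides, the difference of CAPN1 from -0.16 to -0.06, of CAPN2 from -0.0114 to 0.12, of CAPN3 from -0.51 to 0.0687 and of CAST from 0.08 to 0.26, with 0 to 0 of the 4 probes passing and 0 to 9 probes called in all.

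Without K12, CAPN1 passed for the Holstein against the cross-breed animals (0.46, adjusted p = 0.0472), and without S54, CAPN2 passed for the positive against the Holstein animals (-0.38, adjusted p = 0.0273, limma).

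No paired analysis was possible because the numbers in the labels name separate animals. The number of arrays, 4 or 5 in the smaller groups, limited the precision.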
